A study of Mus musculus with 9 samples.

Results

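R2 monocytes carry the Flt3 receptor but not CD11c, and in this staining scheme they stand between R1 (Flt3-CD11c-) and R3 (Flt3+CD11c+) cells. The question here was where the R2 transcriptome leaves that middle position. For each gene, the mean of the 3 R2 arrays was set against the average of the R1 mean and the R3 mean, and genes were then sorted by whether the R2 mean lay above both other populations, below both, or between them. All 9 arrays of the series enter, 3 per population, and all 19937 genes named by the arrays were tested.

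The cells of all 3 populations were Ly6Chi CD115+ cells from the steady state BM of C57Bl/6 mice culled at 8 weeks of age, and none had been treated. By the methods of the study, cells carrying lineage markers that include CD3e, Ly6G, Ter119, CD45RA, NK1.1, cKit, or MHCII were gated out before R1, R2, and R3 were separated on Flt3 and CD11c. Amplified RNA, 1 ng per sample, was read on Affymetrix arrays that measure whole transcripts. The labels give 3 dates, and each population has 1 array per date. No source used here says that the replicates are from different mice, and the p-values cover only the array-to-array spread, some of which may be technical.

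Ly6Chi monocytes arise in the BM from dividing progenitors. In the granulocyte and monocyte branches, proteases of the primary (azurophil) granules such as myeloperoxidase and elastase are made early and their transcripts decline as cells mature. Flt3 is the receptor of the DC growth factor Flt3L, and CD11c (*Itgax*) is an integrin subunit that marks DCs and their precursors.

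*Itgax* was at 5.30, 6.04, and 6.18 in the R2 arrays, 5.06, 5.24, and 5.33 in the R1 arrays, and 10.79, 10.85, and 10.70 in the R3 arrays on the log2 scale of intensity, which is used for all levels below. R2 arrays lay at or just above R1 and far from R3. For *Flt3* the arrays read 7.70, 8.02, and 8.01 in the R2 arrays, 6.74, 7.78, and 7.17 in the R1 arrays, and 10.99, 11.09, and 11.03 in the R3 arrays. The lowest R2 array lay within R1, and R2 was 0.68 above R1 in the mean without a call (adjusted p = 0.281 from limma). *Csf1r*, which encodes CD115, was at 10.95 to 11.04 in R2, 11.18 to 11.33 in R1, and 10.63 to 10.89 in R3. The leukocyte gene *Ptprc* (CD45) was at 11.31 to 11.43 in R2, 11.48 to 11.71 in R1, and 11.09 to 11.16 in R3. Of the lineages that had been gated out, the summed intensity of 17 B cell genes was 930 to 1006 in R2, 925 to 965 in R1, and 1327 to 1404 in R3. The mean log2 intensity of 15 erythroid and megakaryocyte genes was 5.36, 6.05, and 5.94 in R2 replicates 1, 2, and 3 and 5.50 to 5.65 in the other 6 arrays, and their part in the results was not tested. Genes of mature neutrophils varied most within R3, with *Camp* at 10.79, 6.16, and 8.77 in its 3 arrays. In sorted bulk samples, fewer cells of a type and less RNA per cell cannot be told apart.

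Most genes that separate R1 from R3 had R2 between them and close to R1. R3 was called higher than R1 for 1294 genes (6.49% of genes tested) and lower for 1399 (7.02%). In the 747 of these (3.75%) with a difference of 2-fold or more, the R2 mean lay between in 619 (82.9%), beyond R1 in 127 (17%), and beyond R3 in 1, *Tcp11l2*. On a scale where R1 is at 0% and R3 at 100%, the median position of R2 was 14.5% over these genes, 10.9% for the 304 that were higher in R3 and 17.6% for the 443 that were lower. In 19 of the 127 genes the 3 R2 arrays also lay beyond the 3 R1 arrays.

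The contrast of R2 against the average of the outer populations was called (limma, Benjamini-Hochberg adjusted p under 0.05 over all genes) for 593 genes, which is 2.97% of the genes tested, 276 higher (1.38%) and 317 lower (1.59%). In 255 of these the R2 mean lay between R1 and R3, and the call rests on R2 standing off the midpoint. In 117 genes (0.587%) R2 was above both populations, and in 221 (1.11%) it was below both. With no test, the R2 mean lay above both in 26.6% of all genes and below both in 30.0%. The contrast alone does not separate R2 from the nearer population. In 100 of the 117 higher genes and 200 of the 221 lower genes the nearer population was R1. The median distance to the nearer population was 0.19 over the 117 genes and -0.26 over the 221 on the log2 scale. A distance to the nearer population of at least 2-fold was found for 3 genes, *Mir15a*, *Ms4a3*, and *Mcpt8*, all higher, and of at least 1.5-fold for 17 higher and 11 lower genes. Single arrays moved these counts: 51, 56, and 68 genes above both and 76, 103, and 103 below both were called without R2 replicate 1, 2, or 3, and 337 below both without R1 replicate 1. On linear intensity in place of log2, 111 genes were called higher and 197 lower.

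When R2 had to differ from R1 and from R3 at once, by the larger of the p-values of R2 minus R1 and R2 minus R3, limma called 0 genes above both and 0 below both after adjustment over all genes. The smallest adjusted p was 0.718 above and 0.221 below. Without adjustment, this larger p was under 0.05 for 134 genes above (0.672% of genes tested) and 272 below (1.36%). Called separately in each of the comparisons, which share the R2 arrays, 8 genes passed both, 2 above (0.01% of genes tested) and 6 below (0.0301%), and they are described with the genes of their direction. The 3 R2 arrays lay above all 6 other arrays in 263 genes (1.32%) and below all 6 in 420 (2.11%). Against only the R1 and R3 arrays of its own label date, R2 was above both on all 3 dates in 650 genes (3.26%) and below both in 903 (4.53%). Of the genes with a called contrast and R2 outside, 47 of the 117 higher genes and 121 of the 221 lower genes had this separation of arrays. Against R3, 936 genes were called higher in R2 (4.69% of genes tested) and 967 lower (4.85%). Against R1 the counts were 42 (0.211%) and 36 (0.181%).

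**Figure D1:**
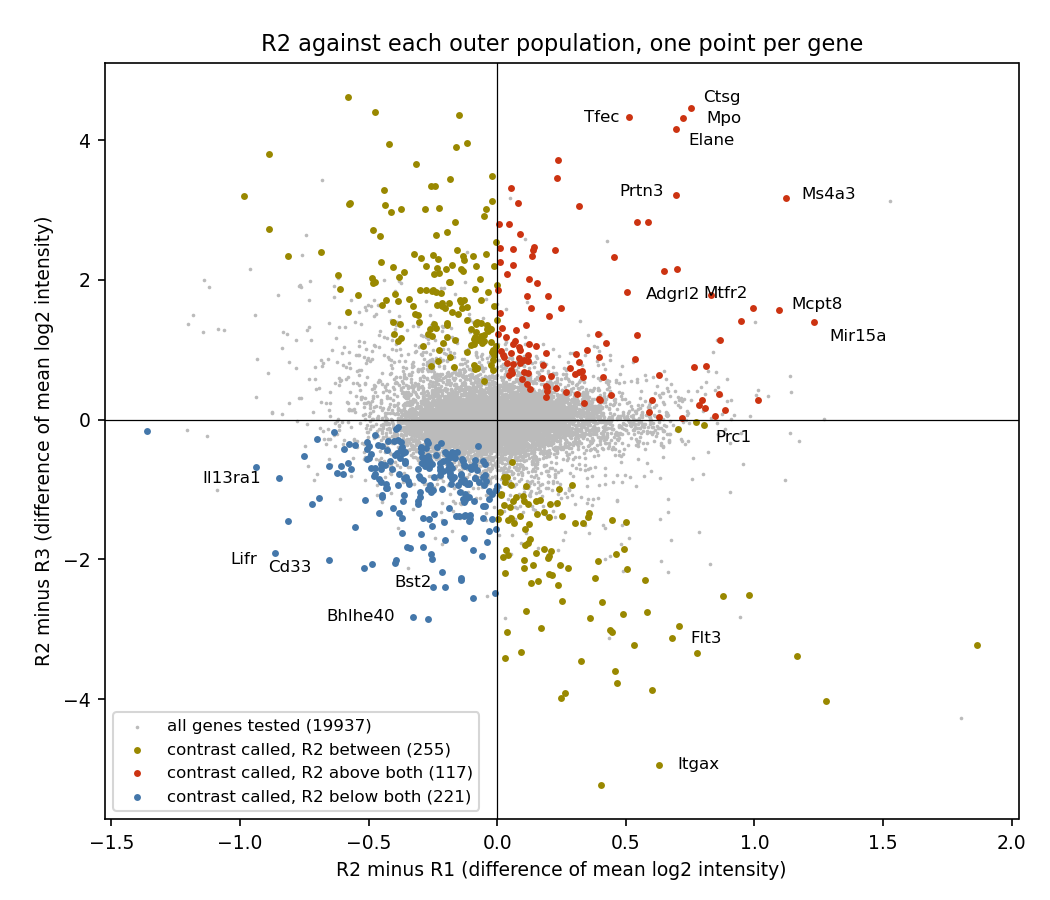
Difference of mean log2 intensity between R2 and R1 (horizontal axis) and between R2 and R3 (vertical axis) for 19937 genes, one point per gene. Genes with a called contrast are coloured by whether the R2 mean was above both populations (117, upper right), below both (221, lower left), or between (255), and most of the first and second kinds lie much closer to 0 along the R1 axis than along the R3 axis.

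Primary granule genes had the largest median contrast of the gene lists examined. Of 18 measured genes of a list of granule proteases and their companions, the contrast was called higher for 10 (1.38% of all genes were) and lower for 0 (1.59%), and R2 stood above both (0.587% of all genes) in 6 of the 10: *Mpo*, *Elane*, *Prtn3*, *Ctsg*, *Ms4a3*, and *Nkg7*. The median contrast of the list was 0.81, against -0.005 over all genes. Its parts were unequal, with a median of 0.25 for R2 minus R1 (-0.02 over all genes) and of 1.75 for R2 minus R3 (0.01 over all genes). Against R3, 15 of 18 were called higher in R2 (4.69% of all genes were). Against R1, 0 of 18 were called in limma, and of all genes only 0.211% were called higher and 0.181% lower.

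*Mpo*, which encodes myeloperoxidase, was at 12.68, 12.04, and 12.27 in the R2 arrays, 11.39, 11.49, and 11.96 in the R1 arrays, and 8.25, 7.66, and 8.12 in the R3 arrays. Every R2 array lay above every R1 array, and all 6 lay far above R3. R2 was 1.65-fold above R1 and 20-fold above R3, and the contrast was 2.52 (standard error 0.19, adjusted p = 0.000386 from limma), while R2 against R1 alone was not called (adjusted p = 0.245). *Elane*, neutrophil elastase, read 11.56, 11.33, and 11.22 in the R2 arrays, 10.42, 10.59, and 11.01 in the R1 arrays, and 7.51, 7.13, and 6.99 in the R3 arrays. The order of the populations was the same, with no overlap between R2 and R1, a 1.62-fold difference from R1 (adjusted p = 0.17), and a contrast of 2.43 (adjusted p = 0.000265, limma). *Ctsg*, cathepsin G, read 11.56, 11.20, and 11.38 in the R2 arrays, 10.27, 10.59, and 11.03 in the R1 arrays, and 6.51, 6.85, and 7.43 in the R3 arrays. Again the lowest R2 array stood above the highest R1 array, and the contrast was 2.60 (adjusted p = 0.000435, limma).

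For *Prtn3*, proteinase 3, the R2 arrays were at 11.96, 11.61, and 12.07, the R1 arrays at 10.72, 11.11, and 11.73 with the highest above the lowest R2 array, and R3 lay at 8.41 to 8.97. *Ms4a3*, which encodes a membrane protein of granulocyte and monocyte progenitors, read 9.17, 8.33, and 8.91 in the R2 arrays, 7.23, 7.48, and 8.33 in the R1 arrays, and 5.67, 5.43, and 5.78 in the R3 arrays. The lowest R2 array equalled the highest R1 array to 2 decimals, although the means were 2.18-fold apart (adjusted p = 0.171, limma). *Nkg7*, which encodes a granule membrane protein, was at 8.46 ± 0.40 (SD, n = 3) in R2, 7.76 ± 0.51 in R1, and 6.30 ± 0.56 in R3, and the R2 and R1 arrays overlapped. Its called contrast of 1.43 (adjusted p = 0.031) was lost with the label date as a block (adjusted p = 0.0654, limma), and without R1 replicate 1 or 2 or any R2 array (up to 0.162). The contrasts of the other 5 kept their calls without any single array. The 4 list members with a called contrast and R2 between were *Mgst1*, *Ctsc*, *Igsf6*, and *Lyz2*. Of these, *Mgst1*, a glutathione transferase, and *Ctsc*, the protease that activates granule serine proteases, were -0.15 and -0.22 from R1 and 4.35 and 1.67 from R3.

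**Figure D2:**
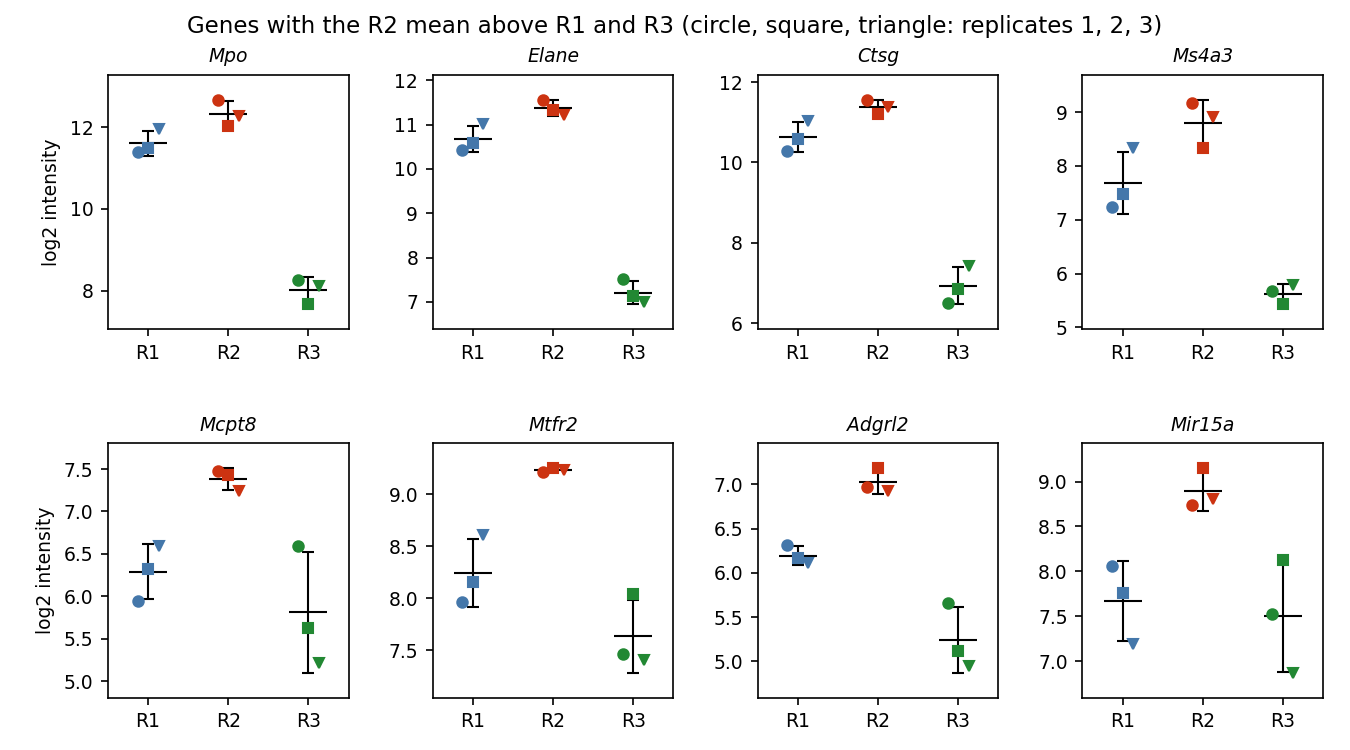
Log2 intensity (vertical axes) of 8 genes whose R2 mean lay above R1 and R3, by population (horizontal axes). Points are arrays, with circle, square, and triangle for replicates 1, 2, and 3, and the bar with whiskers is the mean and SD of 3 arrays. The R2 points stand above all R1 and R3 points in each gene except *Ms4a3*, where the lowest R2 array meets the highest R1 array.

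Levels of the primary granule list varied between arrays of R1. Its mean log2 intensity was 9.60, 9.80, and 10.08 in R1 replicates 1, 2, and 3, against 10.26, 10.03, and 10.12 in R2 and 7.96 to 8.16 in R3. The value of R1 replicate 3 lay within the R2 range. Secondary granule and neutrophil genes, which mark later granulocytes, had a summed intensity of 18909 to 22631 in R2, 18122 to 24242 in R1, and 3244 to 19582 in R3. The contrast was called higher for 6 of the 21 measured genes of that list (1.38% of all genes were) and lower for 0 (1.59%). The 6 were *Anxa1*, *Cd177*, *Chil3*, *Csf3r*, *Ltb4r1*, and *Mmp8*, and R2 lay between in all of them. The median contrast of that list was 0.46, with -0.01 for R2 minus R1 and 0.61 for R2 minus R3. Of its defining genes, *Ltf* was at 5.25 to 5.47 in R2 and 4.83 to 5.60 in R1, and *Ly6g* at 4.21 to 4.40 and 4.39 to 5.03. *Camp*, also of secondary granules, was at 8.58, 6.70, and 7.85 in the R2 arrays and 6.42, 5.83, and 7.52 in the R1 arrays, with a contrast of 0.13 (adjusted p = 0.981, limma). Within R2, replicate 1 was highest and replicate 2 lowest for both *Camp* and *Mpo*, and within R1 replicate 3 was highest for both. *Ctsg* and *Ms4a3* had the same order in R2. *Elane* and *Prtn3* did not, with R2 replicate 3 lowest for *Elane* and highest for *Prtn3*. R1 replicate 3 was highest for these genes too. Stem and progenitor cell genes, 21 of them, had a summed intensity of 2154 to 2689 in R2, 1824 to 2032 in R1, and 4275 to 4561 in R3. This list holds *Flt3*, on which the populations were sorted, at 10.99 to 11.09 in R3 and 7.70 to 8.02 in R2. The order of the sums therefore partly repeats the gate. By gene, the R2 mean lay above both in 5 of the 21, below both in 5, and between in 11. The part of these other cells in the granule result was not tested.

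Since *Mpo*, *Elane*, *Prtn3*, and *Ctsg* stood together, their promoters are printed for comparison, each from 250 bases before to 50 after the start of the gene, from RefSeq on build GRCm38.p6 and read 5′ to 3′ along the gene's own strand. Capitals mark GAGGAA, the core recognised by the ETS family factor PU.1, searched on both strands. No match to TTNNGCAA, a C/EBP motif searched in the same way, was found in these 4 windows.
*Mpo* (chr11:87793534-87793833, plus strand): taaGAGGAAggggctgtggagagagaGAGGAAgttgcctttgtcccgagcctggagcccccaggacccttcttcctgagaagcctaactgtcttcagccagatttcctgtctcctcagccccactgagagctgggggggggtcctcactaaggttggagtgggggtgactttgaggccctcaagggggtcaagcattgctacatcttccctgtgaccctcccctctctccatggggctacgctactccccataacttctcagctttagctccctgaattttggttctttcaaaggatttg
*Elane* (chr10:79886062-79886361, plus strand): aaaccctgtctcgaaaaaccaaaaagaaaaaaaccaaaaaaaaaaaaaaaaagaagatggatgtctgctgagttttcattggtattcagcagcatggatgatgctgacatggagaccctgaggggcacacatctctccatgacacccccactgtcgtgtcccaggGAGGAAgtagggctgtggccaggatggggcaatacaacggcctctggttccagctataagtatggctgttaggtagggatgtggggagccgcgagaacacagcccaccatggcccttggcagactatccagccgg
*Prtn3* (chr10:79879417-79879716, plus strand): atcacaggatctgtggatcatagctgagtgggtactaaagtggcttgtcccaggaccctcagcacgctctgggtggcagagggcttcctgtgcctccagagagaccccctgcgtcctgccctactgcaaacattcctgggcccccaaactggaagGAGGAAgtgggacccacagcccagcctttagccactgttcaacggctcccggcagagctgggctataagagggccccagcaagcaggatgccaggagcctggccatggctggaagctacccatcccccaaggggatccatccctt
*Ctsg* (chr14:56102525-56102824, minus strand): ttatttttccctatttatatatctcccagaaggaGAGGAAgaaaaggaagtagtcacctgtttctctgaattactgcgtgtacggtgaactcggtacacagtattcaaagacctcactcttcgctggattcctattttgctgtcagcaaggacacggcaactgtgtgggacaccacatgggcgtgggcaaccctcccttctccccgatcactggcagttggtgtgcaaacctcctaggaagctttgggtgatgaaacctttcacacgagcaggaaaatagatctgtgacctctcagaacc
GAGGAA occurred 2 times in the *Mpo* window and 1 time in each of the other 3. It was present in 28.3% of all 32851 promoters of this length and TTNNGCAA in 10.8%. By gene, 8 of the 16 list members with a promoter entry held GAGGAA (50%), as did 41 of 94 genes with a called contrast and R2 above both (43.6%), 62 of 172 with R2 below both (36.0%), and 30.2% of all genes tested. TTNNGCAA was held by 5 of the 16 list members (31.2%), 12 of the 94 genes above both (12.8%), and 11.3% of all genes tested. A match is a description of the letters and not a site.

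Of the genes above both, some are neighbors in the genome. *Prtn3* (chr10:79879667-79883174) and *Elane* (chr10:79886312-79888216) lie side by side, and beside *Prtn3* lies *Plppr3* (chr10:79860475-79874958), a member of the lipid phosphatase-related family, whose mean was 7.91 in R2, 7.61 in R1, and 6.97 in R3, with a called contrast of 0.62 (adjusted p = 0.039, limma). Of the other 11 measured genes within 100000 bases of *Elane*, *Arid3a*, which encodes a DNA-binding factor, had a called contrast, 0.53 with R2 between. *Ctsg* (chr14:56099885-56102574) lies beside *Mcpt8* (chr14:56082163-56085499) in the granzyme and mast cell protease cluster. Of the 7 other measured genes of that cluster within the same distance, 0 had a called contrast (2.97% of all genes had one), and their smallest adjusted p was 0.505 (limma).

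*Mcpt8*, a serine protease known from basophils, was at 7.48, 7.43, and 7.24 in the R2 arrays, 5.95, 6.32, and 6.59 in the R1 arrays, and 6.60, 5.62, and 5.21 in the R3 arrays. R2 arrays lay above all others. R2 was 2.14-fold above R1 and 2.98-fold above R3, with a contrast of 1.33 (standard error 0.27, adjusted p = 0.0303, limma) that was lost with the label date as a block (adjusted p = 0.0583) and without R1 replicate 1 or 2, any R2 array, or R3 replicate 2 (up to 0.145). Other defining genes of basophils and mast cells did not follow: *Cpa3*, *Fcer1a*, and *Ms4a2* ranged from 3.19 to 3.97 over the 9 arrays. In the list of 19 measured basophil, mast cell, and eosinophil genes, 2 had a called contrast (2.97% of all genes), *Mcpt8* and *Siglece*, a myeloid Siglec for which R2 lay between. The summed intensity of the list was 1192 to 1295 in R2, 1192 to 1332 in R1, and 614 to 804 in R3.

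*Mir15a* gave the largest distance to the nearer population. Its probe set was at 8.73, 9.15, and 8.81 in the R2 arrays, 8.06, 7.76, and 7.19 in the R1 arrays, and 7.53, 8.13, and 6.87 in the R3 arrays, so the R2 arrays stood above all others while R1 and R3 overlapped. R2 was 2.34-fold above R1 and 2.62-fold above R3, with a contrast of 1.31 (standard error 0.27, adjusted p = 0.0346, limma), and R2 against R1 alone was not called (adjusted p = 0.166). The call was lost without R1 replicate 2 or 3, any R2 array, or R3 replicate 1 (adjusted p up to 0.175). *Mir216a* also had a called contrast with R2 above both (0.40, adjusted p = 0.0311, limma), at a dim 4.83 to 5.01 in R2 against 4.37 to 4.65 in R1, and its call was lost without any of 7 of the 9 arrays (adjusted p up to 0.166), all but R1 replicate 1 and R3 replicate 1. These were the 2 of 300 measured microRNA genes with a called contrast, against 2.97% of all genes. The median contrast of the microRNA list was 0.01. Mature sequences of these microRNAs and of miR-16, which comes from the same locus as miR-15a, are printed from RefSeq (GRCm38.p6) with the seed, bases 2 to 8, in capitals.
mmu-miR-15a-5p (chr14:61632075-61632096, minus strand): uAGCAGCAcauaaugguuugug
mmu-miR-16-5p (chr14:61631936-61631957, minus strand): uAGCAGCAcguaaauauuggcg
mmu-miR-216a-5p (chr11:28757018-28757039, plus strand): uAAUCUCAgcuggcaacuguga
miR-15a and miR-16 share the seed. *Mir16-1*, on the same strand as *Mir15a* and close to it, was at 3.79 to 3.94 in R2, 3.40 to 3.88 in R1, and 3.69 to 3.98 in R3, and the transcript *Dleu2*, which spans both, at 3.55 to 4.0, 3.31 to 3.41, and 3.25 to 3.90. Neither had a called contrast (adjusted p = 0.764 and 0.431, limma). The 5 measured microRNA genes other than *Mir15a* with this seed had contrasts from -0.09 to 0.18. A probe set on a whole-transcript array reads any RNA of the locus, so these values are not levels of the mature microRNA.

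Other genes with R2 arrays above all others came from separate functions. *Mtfr2*, a mitochondrial fission regulator, was at 9.22, 9.25, and 9.24 in the R2 arrays, 7.96, 8.15, and 8.61 in the R1 arrays, and 7.46, 8.04, and 7.40 in the R3 arrays. The R2 arrays were nearly equal and stood clear of both populations, 1.99-fold over R1 (adjusted p = 0.0833) and 3.04-fold over R3, with a contrast of 1.30 (standard error 0.17, adjusted p = 0.00408, limma). *Adgrl2*, the adhesion receptor latrophilin 2, was at 6.97, 7.18, and 6.92 in the R2 arrays, 6.31, 6.17, and 6.11 in the R1 arrays, and 5.66, 5.12, and 4.94 in the R3 arrays. Here the 3 populations did not overlap, R3 was lowest, and the contrast was 1.31 (adjusted p = 0.002, limma). It was not called when all probe sets of the gene were averaged. Both calls held without any single array.

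*Gatm*, the first enzyme of creatine synthesis, was at 8.32, 8.29, and 8.39 in the R2 arrays, 6.88, 7.49, and 8.03 in the R1 arrays, and 7.14, 7.09, and 7.33 in the R3 arrays. R1 ranged over more than 1 log2 unit and its highest array came close to R2. *Dnah8*, an axonemal dynein heavy chain, was at 8.43, 8.27, and 8.15 in R2, and R1 (7.37 to 7.82) and R3 (7.34 to 7.82) shared the same range, so that R2 was 1.7-fold above R1 and 1.69-fold above R3. *Rab44*, an atypical Rab GTPase, was at 8.69 ± 0.32 (SD, n = 3) in R2, 8.04 ± 0.20 in R1, and 6.56 ± 0.51 in R3. The adjusted p of the contrast was 0.0312, 0.018, and 0.00938 for *Gatm*, *Dnah8*, and *Rab44* (limma), and R2 against R1 alone was not called for any of them. The call was lost without any R2 array for *Dnah8* (up to 0.111), without R2 replicate 1 for *Rab44* (0.0604), and without R1 replicate 2, any R2 array, or R3 replicate 1 or 2 for *Gatm* (up to 0.148).

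The genes above both in each comparison taken separately were *Dtymk* and *Adam4*. *Dtymk*, thymidylate kinase of the dTTP pathway, was at 9.36, 9.28, and 9.32 in the R2 arrays, 8.86, 8.93, and 8.97 in the R1 arrays, and 9.03, 9.09, and 8.97 in the R3 arrays. R1 and R3 met at one edge and R2 stood above both by a small step, 0.40 (adjusted p = 0.0469) over R1 and 0.29 (adjusted p = 0.022) over R3 in limma. *Adam4*, of the ADAM metalloprotease family, was dim at 6.18, 6.41, and 6.20 in the R2 arrays, 5.37, 5.58, and 5.40 in the R1 arrays, and 5.53, 5.73, and 5.21 in the R3 arrays. R2 lay 0.81 over R1 (adjusted p = 0.0469) and 0.77 over R3 (adjusted p = 0.00527, limma). With the label date as a block *Adam4* passed both comparisons and *Dtymk* did not.

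Cell division genes were high in R2 without standing apart from R3. Of 29 measured mitosis genes, 29 had an R2 mean above R1 (44.2% of all genes did), and 8 were called higher against R1 (0.211% of all genes were). Against R3, 2 were called lower (4.85% of all genes were), *Kif23* and *Cenpf*, a mitotic kinesin and a kinetochore protein. The medians were 0.60 for R2 minus R1 and -0.07 for R2 minus R3. The mean log2 intensity of the list was 10.38, 10.43, and 10.41 in the R2 arrays, 9.59, 9.85, and 10.09 in the R1 arrays, and 10.45, 10.48, and 10.52 in the R3 arrays. The R2 arrays lay above R1 and just below R3, and R1 replicate 1 was the lowest array. Those called against R1 included *Aurkb*, a kinase of chromosome segregation, *Ttk*, a kinase of the spindle checkpoint, and *Ndc80*, which joins kinetochores to microtubules, at 0.60, 0.83, and 0.58 over R1 (adjusted p = 0.0281, 0.0262, and 0.039, limma). The contrast was called for *Mki67*, the proliferation antigen Ki-67, and *Prc1*, which bundles microtubules of the dividing cell. *Prc1* was at 10.37, 10.47, and 10.42 in the R2 arrays, 9.41, 9.54, and 9.77 in the R1 arrays, and 10.39, 10.36, and 10.37 in the R3 arrays, 0.85 over R1 (adjusted p = 0.0164, limma) and 0.05 over R3 (adjusted p = 0.88). For *Mki67* the differences were 0.63 and 0.04, and the contrast (adjusted p = 0.0178) was lost with the label date as a block (adjusted p = 0.0509, limma). It was also lost without R2 replicate 1 or 2 (up to 0.103), and that of *Prc1* without any R2 array (up to 0.0912).

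Of the 117 genes above both, R3 was called higher than R1 in 9, among them *Prc1*, *Mki67*, *Mad2l1* of the spindle checkpoint, *Spag5* and *Pimreg* of mitosis, *G2e3*, a ubiquitin ligase, *Gas2l3*, which links actin and microtubules, and the DNA repair gene *Neil3*. They were chosen after their values were seen, and no test of the group was made.

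In S phase and histone lists, most genes also had an R2 mean above R1. Among 30 S phase and replication genes, 25 had an R2 mean above R1 and 19 above R3 (83.3% and 63.3%, against 44.2% and 52.3% of all genes). In limma 0 had a called contrast (2.97% of all genes had one), and the median R2 minus R1 was 0.26. The ribonucleotide reductase subunits *Rrm1* and *Rrm2* had R2 arrays above all others, with *Rrm2* at 10.56 to 10.60 in R2, 9.83 to 10.50 in R1, and 10.19 to 10.35 in R3, but not a called contrast (adjusted p = 0.356 and 0.316). Of 31 histone genes, 26 had an R2 mean above R1 (83.9%). In 5 (*H1f1*, *H1f3*, *H1f5*, *H4c14*, and *H4f16*) the R2 arrays lay above all others (1.32% of all genes). Of these, *H1f1* and *H4f16* had a called contrast (1.38% of all genes were called higher). Some histone names were added to the list after values were seen. *H1f1*, a linker histone, was at 11.17, 11.27, and 11.22 in the R2 arrays, 10.39, 10.77, and 10.69 in the R1 arrays, and 11.01, 10.91, and 10.90 in the R3 arrays. It was called over R1 (0.60, adjusted p = 0.0469, limma) and not over R3 (0.28, adjusted p = 0.135), and its called contrast (adjusted p = 0.0253) was lost when each array was centered on its median and without any R2 array or R3 replicate 2 or 3 (up to 0.132). *H4f16*, an H4 histone, had a contrast of 0.29 (adjusted p = 0.0303) that was lost with the label date as a block (adjusted p = 0.0698, limma), with the centering, and without any array but R1 replicate 1 (up to 0.154). Members of histone families are near-identical, and probe sets may share their RNA.

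Of 51 small nucleolar RNA genes, whose products guide modification of ribosomal RNA, 43 had an R2 mean above R1 and 30 above R3 (84.3% and 58.8%, against 44.2% and 52.3% of all genes), with a median contrast of 0.21, and the contrast was called higher for 2 (1.38% of all genes were), *Snord14e* and *Snora62*, and lower for 1 (1.59%), *Snord35b*, with R2 between. *Snord14e* was at 9.62 to 9.82 in R2, 8.61 to 8.99 in R1, and 9.11 to 9.69 in R3, and lost its call with the label date as a block (adjusted p = 0.089, limma). The calls of both genes were also lost when arrays were centered on their medians and without any of 8 of the 9 arrays (up to 0.208 and 0.212). Cytosolic ribosomal protein genes, 61 of them, had 0 called contrasts (2.97% of all genes had one) and a median of 0.02.

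**Figure D3:**
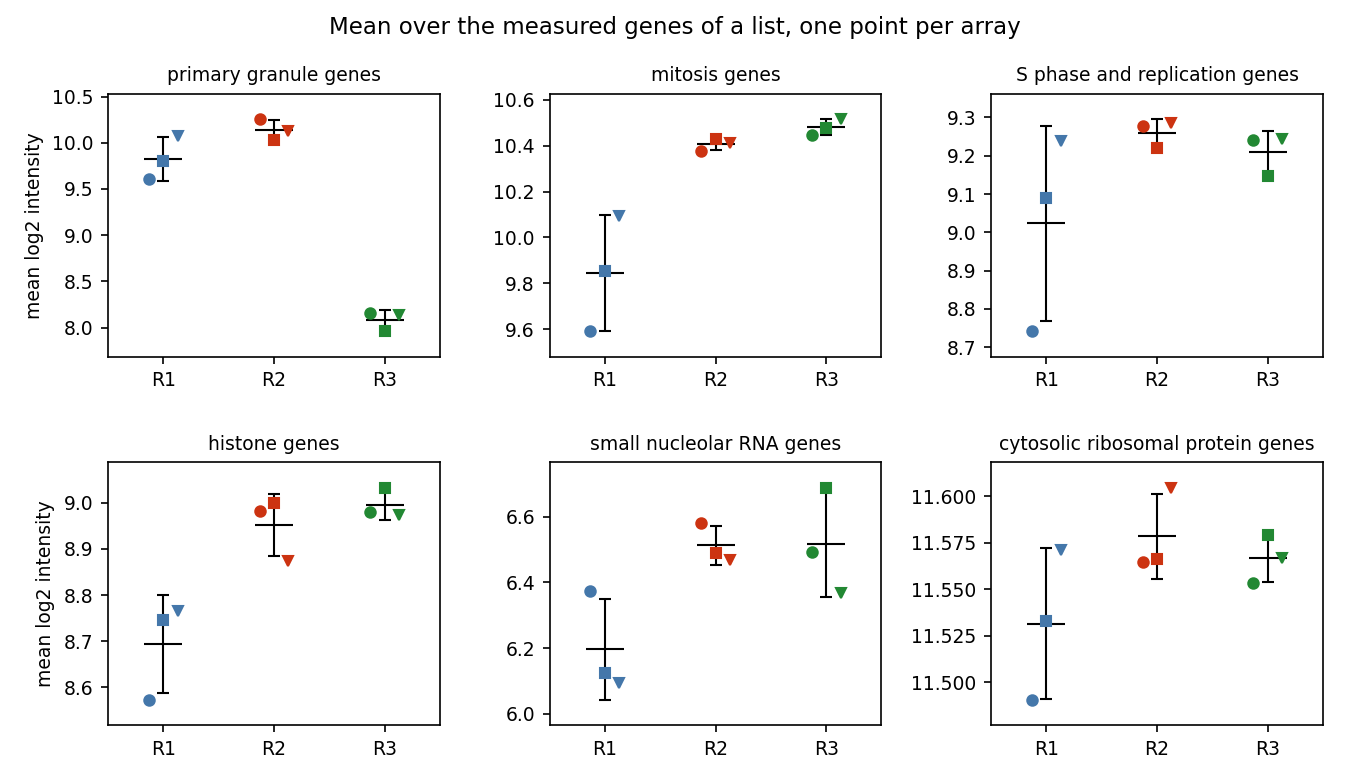
Mean log2 intensity over the measured genes of 6 lists (vertical axes, not starting at 0 and of different range) by population (horizontal axes). Points are arrays, with circle, square, and triangle for replicates 1, 2, and 3, and the bar with whiskers is the mean and SD of 3 arrays. Granule genes were highest in R2 and low in R3, mitosis genes were low in R1 and similar in R2 and R3, and R1 replicate 1 was the lowest array in the mitosis, S phase, histone, and ribosomal panels.

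Genes below both populations were more numerous, and 0 of them lay 2-fold from the nearer population. In 63 of the 221, R1 and R3 were not called apart, and in 61 of these 63 the 3 R2 arrays lay below all 6 others. Among the 117 higher genes, R1 and R3 were not called apart in 26, and in 22 of these the R2 arrays lay above all 6 others. Both sets were selected by a called contrast on the same arrays, so this separation largely follows from the selection and is no further support. The distance to the nearer population in these 63 genes ranged from 0.22 to 0.84 on the log2 scale. In 153 of the 221, R3 was called higher than R1, and in 5 lower: *Tcp11l2*, *Trim62*, *Gab3*, *Ypel3*, and *Ccdc59*, named after their values were seen.

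In resting cells IkB proteins hold NF-kB dimers in the cytoplasm, and their genes are in turn induced by NF-kB. *Nfkbia*, which encodes IkBa, was at 8.72, 9.04, and 8.88 in the R2 arrays, 9.47, 9.76, and 9.37 in the R1 arrays, and 9.63, 9.43, and 9.56 in the R3 arrays. R1 and R3 shared one range and every R2 array lay below it. R2 was -0.65 from R1 (adjusted p = 0.0756) and -0.66 from R3 (adjusted p = 0.0077), and the contrast was -0.66 (standard error 0.10, adjusted p = 0.0104, limma). *Nfkbie*, which encodes IkBe, was at 7.12, 7.51, and 7.21 in the R2 arrays, 7.91, 7.54, and 7.68 in the R1 arrays, and 8.33, 8.06, and 8.39 in the R3 arrays. The highest R2 array lay just below the lowest R1 array, and the contrast was -0.70 (adjusted p = 0.0138, limma). Of 38 measured NF-kB and cytokine genes, 3 had a called contrast, all lower (1.59% of all genes were), with R2 below both for these inhibitors and between for *Tnfsf9*, which encodes the ligand of 4-1BB. The NF-kB subunit gene *Rela* had its R2 arrays below all others too, at 9.19 to 9.35 against 9.42 to 9.76 in R1 and 9.38 to 9.58 in R3, without a called contrast (adjusted p = 0.189). The median contrast of the list was -0.01. The calls of *Nfkbia* and *Nfkbie* were lost without R2 replicate 1 or 3 (adjusted p up to 0.0667 and 0.0871, limma).

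The *Nfkbia* promoter is printed from RefSeq (GRCm38.p6), with capitals for an NF-kB motif (GGGA, any 4 bases, then CC) on either strand.
*Nfkbia* (chr12:55492598-55492897, minus strand): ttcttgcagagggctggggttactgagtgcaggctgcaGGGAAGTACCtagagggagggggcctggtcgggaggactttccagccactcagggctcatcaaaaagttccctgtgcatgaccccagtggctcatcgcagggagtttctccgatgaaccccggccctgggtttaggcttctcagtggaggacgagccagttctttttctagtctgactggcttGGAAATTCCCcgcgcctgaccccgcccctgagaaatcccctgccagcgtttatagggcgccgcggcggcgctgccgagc
The motif occurred 2 times here and 0 times in the *Nfkbie* window of the same length. It was present in 20.7% of all promoters of this length, in 56 of 172 genes with R2 below both (32.6%), and in 26.8% of all genes tested.

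Immediate early genes showed 5 called contrasts of 34 measured (2.97% of all genes had one), 3 lower with R2 below both (*Nfkbia*, *Ier5*, and *Zfp36l1*) and 2 higher with R2 between (*Fos* and *Rhob*). *Ier5*, an immediate early response gene, was at 7.31, 7.38, and 7.14 in the R2 arrays, 7.62, 7.82, and 7.75 in the R1 arrays, and 8.24, 8.12, and 8.15 in the R3 arrays. R2 arrays lay below both populations, 1.37-fold below R1 (adjusted p = 0.079) and 1.86-fold below R3, with a contrast of -0.67 (adjusted p = 0.002, limma). *Zfp36l1*, an RNA decay factor, was -0.20 from R1 with overlapping arrays and -2.40 from R3. The mean log2 intensity of the list was 7.31 to 7.38 in R2, 7.51 to 7.59 in R1, and 7.34 to 7.41 in R3. *Zfp36l1* lost its call without R2 replicate 1 (adjusted p = 0.0547), and *Ier5* kept its call without any single array.

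**Figure D4:**
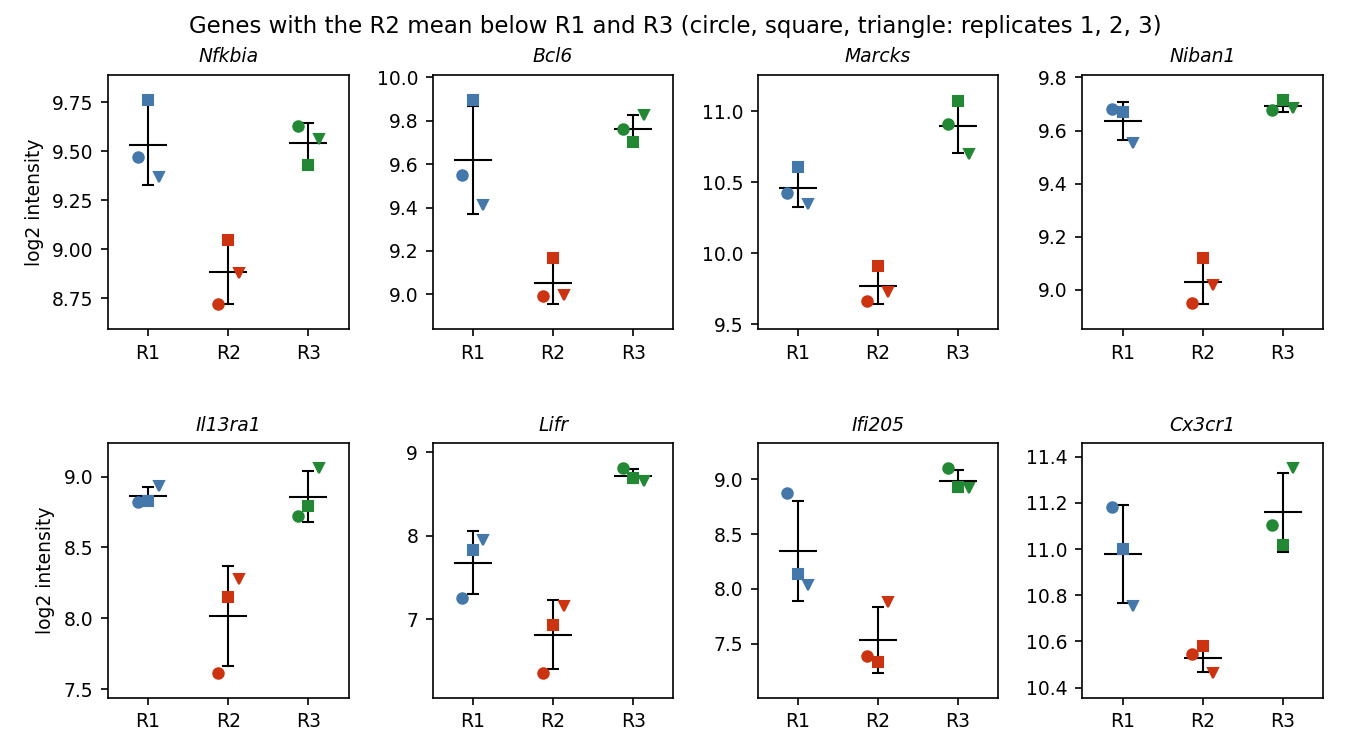
Log2 intensity (vertical axes) of 8 genes whose R2 mean lay below R1 and R3, by population (horizontal axes). Points are arrays, with circle, square, and triangle for replicates 1, 2, and 3, and the bar with whiskers is the mean and SD of 3 arrays. In each of the 8 genes the 3 R2 points lie below all R1 and R3 points.

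Of 64 measured myeloid transcription factor genes, 3 had a contrast called higher (1.38% of all genes were) and 7 lower (1.59%), and R2 was below both in 6 (1.11% of all genes) and above both in 1 (0.587%), *Lyl1*, a progenitor factor 0.02 from R1. *Bcl6*, a repressor used by lymphoid and myeloid cells, was at 8.99, 9.17, and 9.0 in the R2 arrays, 9.55, 9.90, and 9.41 in the R1 arrays, and 9.76, 9.70, and 9.83 in the R3 arrays, below both populations, with a contrast of -0.64 (adjusted p = 0.0111, limma). *Hhex*, a homeobox factor of blood progenitors, was at 9.30 to 9.40 in R2, 9.70 to 9.81 in R1, and 9.81 to 10.30 in R3. For both genes the R2 arrays lay below all others and R1 and R3 were not called apart. The calls were lost without R2 replicate 1 or 3 for *Bcl6* (adjusted p up to 0.073) and without any R2 array for *Hhex* (up to 0.0911).

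In the other 4, R3 was highest and R2 lay nearer to R1 than to R3, at -0.52 from R1 and -2.12 from R3 for *Irf4*. *Irf4*, a factor of DC and B cell differentiation, was at 6.48, 6.58, and 6.0 in the R2 arrays, 6.52, 7.18, and 6.92 in the R1 arrays, and 8.25 to 8.80 in R3. The R2 and R1 arrays overlapped. *Bhlhe40*, *Tcf4* (E2-2, required for plasmacytoid DCs), and *Runx3* differed from R1 by -0.33, -0.14, and -0.18 and from R3 by -2.82, -2.29, and -0.85, and for none of the 4 was R2 called apart from R1 (adjusted p from 0.428 for *Irf4* to 0.749 for *Tcf4*, limma). The contrast of *Runx3* was lost without R2 replicate 1 or 2 (adjusted p up to 0.112).

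Of 38 DC lineage genes, 15 had a contrast called lower (1.59% of all genes were) and 1 (*Naaa*) higher (1.38%), and in 5 of the 15 R2 was below both (1.11% of all genes) and in the rest between. The 5 were *Anpep*, *Btla*, *Ifi205*, *Jaml*, and *Nav1*, and R2 minus R1 was -0.007, -0.22, -0.81, -0.06, and -0.05 in them. *Clec9a*, *Kmo*, *Flt3*, and *Itgax* were between, with R2 minus R1 of 1.87, 0.71, 0.68, and 0.63. *Ifi205*, an interferon-activated gene of the Ifi200 family that is also on this list, was at 7.39, 7.34, and 7.88 in the R2 arrays, 8.87, 8.14, and 8.04 in the R1 arrays, and 9.10, 8.93, and 8.92 in the R3 arrays. The R2 arrays lay below all others, 1.76-fold below R1 (adjusted p = 0.193) and 2.73-fold below R3, with a contrast of -1.13 (adjusted p = 0.0134, limma). Its neighbor *Ifi203* on chromosome 1 had a contrast of -0.43 (adjusted p = 0.0195) with R2 arrays that overlapped R1. Both calls were lost without R2 replicate 1 or 2, that of *Ifi203* also without R2 replicate 3 or R1 replicate 2 (up to 0.0871 and 0.107). *Btla*, an inhibitory receptor, was at 8.05 to 8.36 in R2, 8.38 to 8.50 in R1, and 8.83 to 8.99 in R3, and lost its call without R2 replicate 1 or 3 (up to 0.071). *Bst2* (tetherin), held by both plasmacytoid DC and interferon-stimulated lists, was at 10.03, 9.94, and 10.07 in R2, 10.18, 10.26, and 10.26 in R1, and 12.07 to 12.36 in R3, a small step below R1 (-0.21, adjusted p = 0.398) beside a large one below R3 (-2.18).

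Interferon-stimulated genes as a list were between. Of 44 measured, 30 had the R2 mean between R1 and R3. It lay below both in 13 (29.5%, near the 30.0% of all genes) and above both in 1 (2.3%, against 26.6%). R2 was over R1 in 1 of the 44 (2.27%, against 44.2% of all genes). A called contrast was found for 4 (2.97% of all genes), 3 lower with R2 below both (*Bst2*, *Ifi205*, and *Ifi203*) and *Gbp3*, a guanylate-binding protein, higher with R2 between. *Ifit1*, a translation inhibitor induced by interferon, was at 6.20 to 6.53 in R2, 7.21 to 7.57 in R1, and 4.75 to 5.21 in R3, which gives a contrast of 0.11 although R2 was called apart from each (adjusted p = 0.0282 from R1 and 0.000489 from R3, limma).

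Surface receptors were among the genes farthest below both. *Lifr*, the receptor of leukemia inhibitory factor, was at 6.36, 6.93, and 7.16 in the R2 arrays, 7.25, 7.83, and 7.95 in the R1 arrays, and 8.81, 8.69, and 8.66 in the R3 arrays. R2 arrays lay below all others, 1.82-fold below R1 (adjusted p = 0.171) and 3.74-fold below R3, with a contrast of -1.38 (adjusted p = 0.00565, limma). *Il13ra1*, a chain of the IL-4 and IL-13 receptor, was at 7.61, 8.15, and 8.28 in the R2 arrays, 8.82, 8.83, and 8.93 in the R1 arrays, and 8.72, 8.79, and 9.06 in the R3 arrays. R1 and R3 coincided, and R2 was 1.8-fold below R1 (adjusted p = 0.0821) and 1.79-fold below R3, with replicate 1 the lowest. *Cd33*, a Siglec of myeloid cells, was at 8.41 ± 0.34 (SD, n = 3) in R2, 9.07 ± 0.02 in R1, and 10.43 ± 0.48 in R3, and its contrast was -1.33 (adjusted p = 0.00835, limma). Without R2 replicate 1 or 2 the call of *Cd33* was lost (up to 0.0563), and the calls of *Lifr* and *Il13ra1* held without any single array.

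*Cx3cr1*, the fractalkine receptor of monocytes, was at 10.54, 10.58, and 10.46 in the R2 arrays, 10.75 to 11.18 in the R1 arrays, and 11.10, 11.02, and 11.35 in the R3 arrays. The R2 arrays were lowest, and the contrast of -0.54 (adjusted p = 0.0257) was lost with the label date as a block (adjusted p = 0.0586, limma) and without R1 replicate 2, any R2 array, or R3 replicate 1 (up to 0.132). *P2ry6*, a receptor for UDP, was at 9.32, 9.36, and 9.41 in R2, 9.75, 10.05, and 10.08 in R1, and 9.88, 9.74, and 9.73 in R3, and passed each comparison taken separately (-0.59, adjusted p = 0.0469, and -0.42, adjusted p = 0.025, limma). *Cd180*, a homolog of TLR4, was at 11.40 to 11.50 in R2, 11.66 to 11.76 in R1, and 12.01 to 12.20 in R3. The integrin genes *Itgb7* and *Itgb1* had contrasts of -0.48 and -0.36, and the R2 arrays lay below all others for *Itgb7* and overlapped R1 for *Itgb1*, whose call was lost without any of 7 of the 9 arrays (up to 0.139), all but R1 replicate 1 and R3 replicate 2. Of 54 measured monocyte genes, 13 had a contrast called higher (1.38% of all genes were) and 2 lower (1.59%), and R2 was outside in 3: *Cx3cr1* and *Plbd1*, a lysosomal phospholipase-like gene, below both and *Prtn3* above. *Plbd1* lost its call without R1 replicate 2, any R2 array, or R3 replicate 2 or 3 (adjusted p up to 0.172). The 54 genes had a summed intensity of 131876 to 136941 in R2, 145013 to 151775 in R1, and 83778 to 93210 in R3.

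The 6 genes below both in each comparison taken separately were *Niban1*, *Tle3*, *Marcks*, *AI837181*, *Pik3r4*, and *P2ry6*. *Niban1*, a stress-induced regulator of cell survival, had the smallest larger p of all genes and was at 8.95, 9.12, and 9.02 in the R2 arrays, 9.68, 9.67, and 9.55 in the R1 arrays, and 9.68, 9.72, and 9.68 in the R3 arrays. R1 and R3 coincided, and R2 was -0.61 from R1 (standard error 0.07, adjusted p = 0.0221) and -0.66 from R3 (adjusted p = 0.000291, limma). *Marcks*, an actin-binding substrate of protein kinase C, was at 9.67, 9.91, and 9.73 in the R2 arrays, 10.43, 10.61, and 10.35 in the R1 arrays, and 10.91, 11.07, and 10.70 in the R3 arrays. The 3 populations did not overlap, with R3 highest, and R2 was 1.62-fold below R1 (adjusted p = 0.0493) and 2.18-fold below R3. *Tle3*, a Groucho family corepressor, was -0.46 from R1 (adjusted p = 0.0493) and -0.86 from R3 (adjusted p = 0.000104, limma), with the R2 arrays at 8.77, 8.76, and 8.85 and R1 at 9.17 to 9.33.

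*Pik3r4*, the regulatory subunit Vps15 of the class III PI 3-kinase, was at 7.39 to 7.45 in R2, 7.86 to 8.04 in R1, and 7.74 to 7.93 in R3, and *AI837181* at 8.79 to 8.91, 9.39 to 9.48, and 9.20 to 9.26. For both genes every R2 array lay below the other 6. With the label date as a block, *Niban1* and *Marcks* passed both comparisons and the other 4 did not, and with arrays centered on their medians only *Niban1* and *AI837181* of all 8 genes, above and below, did. In fits to the 6 arrays of each pair alone, and by the methods' unpaired test with adjustment, 0 of the 8 passed both. Without any single R2 array, R1 replicate 2, or R3 replicate 1, 0 of these 6 genes, and neither *Dtymk* nor *Adam4*, passed both.

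Among the remaining genes with the largest steps below both, *Tppp3*, which promotes tubulin polymerization, was at 6.75, 7.11, and 6.92 in the R2 arrays, 7.61, 7.99, and 7.35 in the R1 arrays, and 7.95, 8.20, and 8.25 in the R3 arrays. R2 was below both populations without overlap. *Phf11a* was at 7.14, 7.26, and 7.27 in R2, 7.82 to 8.54 in R1, and 7.70 to 8.05 in R3, and *Rbpms*, an RNA-binding protein gene, at 8.05, 8.22, and 8.46, 8.76 to 9.0, and 8.85 to 9.11. Their contrasts were -0.96, -0.81, and -0.69 (adjusted p = 0.00726, 0.0177, and 0.00807, limma), and R2 against R1 alone was called for none of them. The contrast was lost without R2 replicate 1 for *Tppp3* (0.0537), any R2 array for *Phf11a* (up to 0.105), and R2 replicate 2 for *Rbpms* (0.0505).

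Of 23 cytosolic sensor genes, 6 had a contrast called higher (1.38% of all genes were), with R2 above both (0.587% of all genes) for *Mefv*, *Naip5*, and *Nlrp1b*, the latter pair by 0.004 and 0.07 over R1. *Mefv*, which encodes the inflammasome sensor pyrin, was at 9.08, 9.18, and 9.23 in the R2 arrays, 8.54, 8.57, and 8.86 in the R1 arrays, and 7.05, 7.33, and 7.62 in the R3 arrays. R2 arrays lay above R1 by 0.51 in the mean (adjusted p = 0.216) and R3 was far below, with a contrast of 1.17 (adjusted p = 0.00158, limma). Of 26 Toll-like receptor genes, against 1.38% and 1.59% of all genes, 2 were called higher (*Lbp* and *Irak3*) and 2 lower (*Cd180* and *Tlr12*). *Lbp*, the LPS-binding protein, was at 9.67 to 10.24 in R2 and 9.23 to 10.08 in R1, overlapping, and 5.93 to 6.86 in R3. *Klrb1f*, a C-type lectin receptor of the NK gene complex, was at 10.49, 10.39, and 9.91 in the R2 arrays, 9.86, 9.74, and 9.55 in R1, and 6.95 to 8.11 in R3, and *Itga1*, integrin alpha 1, was 0.14 from R1 and 2.47 from R3.

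Among other genes the study names, the R2 mean lay between R1 and R3 for *Slamf7*, *Cd209a*, *Zbtb46*, and *Ciita*, which were higher in R3, with R2 minus R1 of 0.44, 0.94, 0.04, and 0.19. It also lay between for the monocyte and granulocyte receptor genes *Msr1*, *Fcgr3*, *Csf3r*, and *Fcgr2b*, which were lower in R3, with R2 minus R1 of -0.58, -0.18, -0.28, and -0.13. *Spi1*, which encodes PU.1, had a contrast of -0.08 (adjusted p = 0.806, limma), with 11.58 to 11.65 in R2, 11.43 to 11.76 in R1, and 11.63 to 11.82 in R3.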

How the data were processed

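The deposited series matrix holds 1 intensity value per probe set and array for all 9 arrays, on a linear scale and as processed by the authors. The methods used to summarise and normalise these intensities are not given in the sources used here, and array medians were 58.0 to 64.7. Values were taken to log2 with no pseudocount and no further normalization. Of 34760 probe sets, 21640 name 1 gene by the platform annotation, 1321 several, and 11799 none. 21553 were matched by Entrez ID to RefSeq (GRCm38.p6), and 0 symbols needed updating. A gene was read from its brightest probe set naming it alone, which left 19937 genes. Several probe sets served 954 genes, and 1202 had identical values in the arrays of a population. 0 columns were left unused.

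Groups follow the labels. limma 3.58.1 in R 4.3.3 (lmFit and eBayes, 6 residual degrees of freedom) was fitted to the 3 populations, with p-values adjusted by Benjamini-Hochberg over all genes and a threshold of 0.05. R2 above or below both was tested by the larger p of its 2 comparisons. Scripts were checked on simulated data. Replicate numbers follow label dates, so they pair arrays by day. Deviations from the population means correlated at -0.02 to 0.15 in 9 same-date pairs and -0.15 to 0.08 in 18 others. These correlations do not settle whether the date matters, since deviations within a population cancel out over the dates. The main fit had no block because the methods name an unpaired test. The block with date was an alternative, beside centering, quantile normalization, averaging of probe sets, filters on dim or tied genes, array weights, another variance model, linear intensity, and leaving out arrays or dates. A further alternative was the methods' unpaired test for R2 against R1 and against R3, with an unmoderated fit for the contrast.

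Named genes were the 10 per direction farthest from the nearer population among those with a called contrast, separated arrays, and a highest mean of at least 7, the leading members of each list, and genes named in the study. Others were named after their values were seen, and some histone names were added to their list then. The members and lists were chosen with earlier results of these data known. Some items are not reported here.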

Additional observations from a re-analysis of the deposited data

How the results depend on the processing

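The alternatives were followed for 60 of the genes described, all with a called contrast. None of them changed direction. They were selected on the same arrays, so a change was unlikely, and this is no further support. With the label date as a replicate block, the contrast gave 270 genes higher and 324 lower, 108 with R2 above both and 228 below both, and 54 of these 60 genes kept their call. The methods' unpaired test compares 2 groups, so for the contrast a fit of the 3 populations without moderation of the variance took its place. Of the same 60, the call was kept by 22 under this unmoderated fit after adjustment and by 26 at its unadjusted p with the methods' 2-fold minimum. It was kept by 34 on linear intensity, 28 to 56 without 1 array, and 17, 2, and 15 without the arrays of replicate 1, 2, or 3. The joint test gave 0 genes above and 0 below both under each setting listed in the methods for which it was run except the methods' threshold (unadjusted p and 2-fold), which gave 2 above (*Mir15a* and *Mcpt8*) and 0 below. Quantile normalization raised the genes called above both to 178. Array weights gave 496 higher and 627 lower, 264 above and 488 below both. The unmoderated fit after adjustment gave 124 higher and 108 lower, 46 above and 71 below both, and at its unadjusted p with the 2-fold minimum 84, 60, 40, and 25. Linear intensity gave 111, 197, 66, and 117. Leaving out 1 array or the 3 arrays of 1 date gave 17 to 309 genes higher, 8 to 434 lower, 5 to 160 above both, and 2 to 337 below both, the lowest without the arrays of replicate 2. Counts under the other alternatives stayed within 1.5 times. Alternatives added after seeing the data called 2 above and 6 below both with each comparison on its own, and 134 and 272 by the unadjusted larger p. The causes were not tested. The number of arrays limits the precision.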

Other observations

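Further genes with R2 outside both populations belonged to no list, and those given here were chosen after their values were seen. *Tfec*, a transcription factor of the MiT family of macrophages, was at 10.46, 10.36, and 10.43 in the R2 arrays, 9.77, 9.87, and 10.07 in the R1 arrays, and 5.27, 6.71, and 6.30 in the R3 arrays, so that R2 stood above R1 without overlap and R3 far below, with a contrast of 2.42 (adjusted p = 0.00159, limma). *Nrg1*, the growth factor neuregulin 1, was at 9.15, 8.98, and 8.93 in R2, 8.26, 8.28, and 8.76 in R1, and 5.89 to 6.59 in R3. R2 minus R1 was 0.51 and 0.59 (log2), neither of them called (adjusted p = 0.618 and 0.283, limma). *Sele*, the endothelial selectin gene, was at 7.81, 7.61, and 7.07 in R2, 7.11, 6.33, and 6.22 in R1, and 6.02 to 6.12 in R3, with the lowest R2 array below the highest R1 array.

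Below both, *Pik3ap1*, which encodes the PI 3-kinase adaptor BCAP, was at 7.78, 7.92, and 7.81 in R2, 8.35, 8.40, and 8.43 in R1, and 9.16 to 9.52 in R3, a contrast of -1.04 (adjusted p = 0.000435, limma) with no overlap of R2 with either population. *Gsn*, gelsolin, an actin-severing protein, was at 8.22, 8.08, and 8.52 in R2 against 8.78 to 9.04 in R1 and 8.98 to 9.10 in R3. *Tcp11l2*, the gene that lay beyond R3, was at 7.42, 7.36, and 6.98 in R2, 8.58, 8.71, and 8.56 in R1, and 7.61, 7.65, and 6.98 in R3. The R2 and R3 arrays overlapped, and R2 was 2.57-fold below R1 (adjusted p = 0.0262, limma).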
